A study of Rattus norvegicus with 12 samples.

Results

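The LacZ control libraries give the baseline transcriptome of cultured heart muscle cells from newborn rats. They were taken by their label alone and number 3 of the 12 libraries of the series. All 12 came from primary neonatal rat ventricular cardiomyocytes infected with adenovirus for 2 days. The control virus carried LacZ, the bacterial beta-galactosidase gene, and the viruses of the other 9 libraries carried human KAT6A, a lysine acetyltransferase. These form 3 groups of 3. One received wild-type KAT6A (WT), and the others received K815R, a mutant that resists acetylation, or K815Q, a mutant that mimics it. LacZ cells thus carry adenovirus too, and no uninfected cells were analysed here. The sex and number of the pups, and whether replicates came from separate isolations, are not given in the sources used here. The spread between replicates may therefore be technical.

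Ventricular cardiomyocytes contract through sarcomeres, in which myosin heavy and light chains pull on actin filaments under the control of troponin and tropomyosin. Many of these proteins exist as isoforms from separate genes, and the heart exchanges fetal for adult isoforms around birth. In rodents the ventricle moves from beta-myosin (Myh7) to alpha-myosin (Myh6), from slow skeletal troponin I (Tnni1) to cardiac troponin I (Tnni3), and lowers the natriuretic peptides Nppa and Nppb. Cells prepared from newborn ventricles are isolated during this exchange, and fibroblasts and vessel cells of the heart wall come with them in varying amounts.

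The counts held 22095429 to 23870785 reads assigned to genes per LacZ library, against 19102048 to 25451686 over the series. Alignments to more than 1 place made up 25.8% to 26.1% of all entries of each LacZ library, genes and non-gene lines together. They were not counted for any gene. Whether a read was entered there once or once per alignment was not checked, so this need not be a share of reads. Levels are given as CPM, which is the count divided by the library's gene counts and scaled to a fixed total, with TMM normalisation, as mean ± SD over the 3 libraries. They are not divided by transcript length, so a level is a share of reads, and an order between different genes is an order of reads and not of molecules. At this depth 3 counts equal 0.126 to 0.136 CPM. Pairs of LacZ libraries differed by more than sampling noise, with a chi-square per degree of freedom of 5.20 to 6.67. They were counted as 3 samples. The row of rat Kat6a stood at 48.1 ± 4.74 CPM in LacZ. It stood at 93.0 ± 12.3 CPM in WT, 108 ± 11.6 CPM in K815R and 46.3 ± 3.35 CPM in the libraries labelled K815Q. The row thus did not mark those last 3 libraries as carrying the virus gene.

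Reads of 20072 of the 32883 genes in the table were found in at least 1 LacZ library. A mean of 1 CPM or more was reached by 12707 genes, 100 CPM by 1778 genes, 1000 CPM by 80 genes and 10000 CPM by 7 genes. The reads were concentrated in few genes. The 100 genes with the highest mean held 32.0% ± 0.384 of all gene counts, and the 10 highest of each library held 13.6% ± 0.257. It took 475 ± 14 genes to reach 50% of the counts in LacZ (459 to 485), and 400 to 465 genes in the 9 other libraries. The top genes were repeatable, with a coefficient of variation of 0.466% to 14.7% over the 3 libraries and a median of 4.71%.

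**Figure D1:**
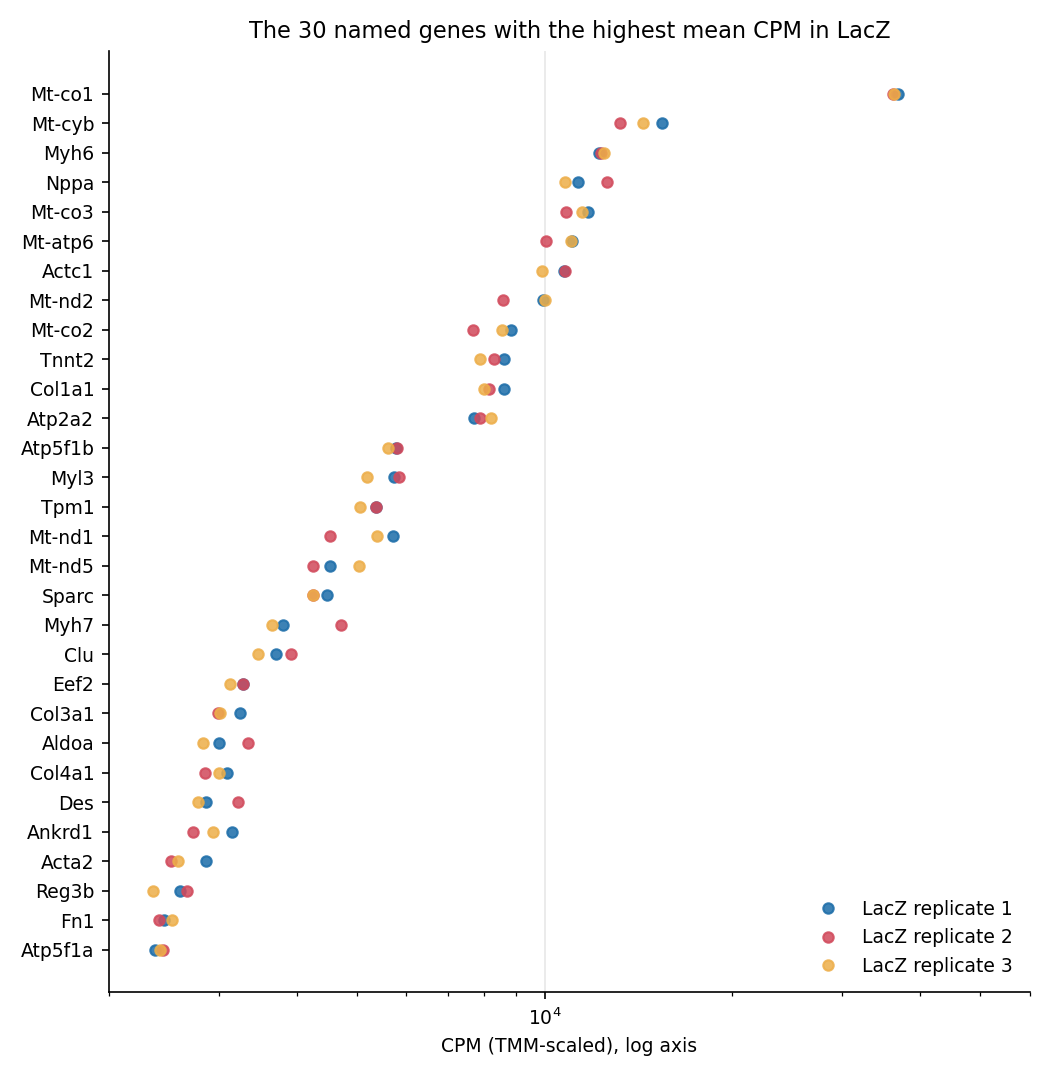
CPM of the 30 named genes with the highest mean in LacZ, 1 point per library on a log axis. Mt-co1 stands apart at 36157 to 36934 CPM, and the 3 libraries lie close together for nearly every gene, with the widest gaps for Myh7 and Mt-nd1.

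Messages of mitochondrial DNA took the largest part of the top 100 of the 10 functional classes into which these genes were sorted by hand, with 10 genes and 10.6% of all gene counts. Mt-co1, the catalytic subunit of cytochrome c oxidase, was the first gene in every library, at 36934, 36157 and 36401 CPM. Mt-cyb, of respiratory complex III, followed at 15417, 13204 and 14407 CPM. Mt-nd4 lay far outside this range at 5.23, 6.50 and 7.62 CPM, while Mt-nd4l, which lies on the same mitochondrial message, was at 387, 366 and 454 CPM. All 13 protein-coding genes of mitochondrial DNA together held 10.7% ± 0.523 of the counts in LacZ, and 10.5% to 12.8% in the other libraries. The rows AY172581.24 (8077 ± 414 CPM) and AY172581.9 (1731 ± 98.4 CPM) carry a sequence name without a gene symbol. They are not assigned to a gene here and were sorted into the class of other genes. The shares given for mitochondrial DNA cover its protein-coding genes only and leave these rows out.

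Sarcomere and Z-disc genes were the second class, with 13 genes and 5.73% of the counts. Myh6, the alpha-myosin motor, was read at 12202, 12311 and 12434 CPM. Actc1, cardiac alpha-actin, was at 10750, 10787 and 9898 CPM. Tnnt2, the cardiac troponin T that ties troponin to tropomyosin, was at 8592, 8299 and 7879 CPM. The 3 libraries lay close together for each of these genes. Myl3, the ventricular essential light chain, reached 5585 ± 343 CPM and Tpm1, alpha-tropomyosin, 5261 ± 180 CPM. Desmin (Des), the intermediate filament that links Z-discs, stood at 2956 ± 237 CPM. It was sorted into the class of the cytoskeleton and is not among these 13 genes.

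The natriuretic peptide Nppa was the fourth gene of the whole table, at 11324, 12590 and 10772 CPM. Its chromosomal neighbour Nppb was read at 1148, 1146 and 1067 CPM. Replicate 2 was highest for Nppa but not for Nppb. Calcium handling and ion transport gave 6 of the top 100 genes and 1.53% of the counts, led by the sarcoplasmic calcium pump Atp2a2 at 7713, 7882 and 8191 CPM. Its inhibitor phospholamban (Pln) was at 2033 ± 85.5 CPM and the gap junction protein Gja1 at 870 ± 49.0 CPM.

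Nuclear genes of energy metabolism gave 18 of the top 100 and 3.07% of the counts. Atp5f1b, the catalytic subunit of ATP synthase, stood at 5729 ± 99.7 CPM, the glycolytic enzyme Aldoa at 3060 ± 262 CPM and the mitochondrial ADP/ATP carrier Slc25a4 at 2260 ± 98.5 CPM. Myoglobin (Mb), the oxygen store of muscle, was at 927 ± 36.0 CPM. Over the whole table, 89 rows of nuclear oxidative phosphorylation subunits held 3.74% ± 0.111 of the counts, and 91 rows of cytosolic ribosomal proteins held 2.75% ± 0.125.

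Matrix genes were also among the most read. Their class had 10 genes and 2.86% of the counts, led by Col1a1, a chain of fibrillar collagen I, at 8609, 8142 and 8003 CPM. Sparc, a collagen-binding protein, followed at 4325 ± 131 CPM, then Col3a1 at 3087 ± 141 CPM, the basement membrane chain Col4a1 at 2981 ± 121 CPM and fibronectin (Fn1) at 2464 ± 60.1 CPM. Ankrd1, Clu and Reg3b were sorted into the class of chaperones and stress and are not among these 10 genes. Ankrd1, a stretch-responsive protein of the sarcomere, was at 2939 ± 210 CPM, and the secreted chaperone clusterin (Clu) at 3696 ± 224 CPM. Reg3b, a secreted lectin best known from gut and pancreas, ranked 29th with 2598, 2672 and 2353 CPM. Its relatives Reg3g (14.6 CPM) and Reg3a (0.312 CPM) were far lower.

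Promoters of 3 gene pairs are printed because the members of each pair stand for different stages or levels of the same heart function: the neighbours Myh6 and Myh7, the neighbours Nppa and Nppb, and cardiac and skeletal alpha-actin (Actc1 and Acta1). Each runs from 250 bases before to 50 bases after the annotated start, 5′ to 3′ on the gene's own strand, from RefSeq on the build GRCr8, which is not the build of the counts. The word promoter stands for this window only, and the annotated starts were not checked against starts of transcription. Capitals mark matches to any of 6 searched motifs on either strand. The core promoter element searched was TATAAA. The element of the zinc finger factors that include Gata4 was searched as AGATAA, the element of the TEAD factors as CATTCC and the element of Sp1 as GGGCGG. The serum response element (CArG box) and the MEF2 consensus were searched too, and matches of both can share letters with the core promoter element.
Myh6 promoter, chr15:32411648-32411947, minus strand: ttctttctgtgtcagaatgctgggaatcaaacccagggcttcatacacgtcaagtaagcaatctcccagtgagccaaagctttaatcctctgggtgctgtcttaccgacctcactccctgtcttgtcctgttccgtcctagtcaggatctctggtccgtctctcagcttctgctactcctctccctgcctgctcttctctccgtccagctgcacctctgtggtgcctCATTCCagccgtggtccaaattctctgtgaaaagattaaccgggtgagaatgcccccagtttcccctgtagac
Myh7 promoter, chr15:32438145-32438444, minus strand: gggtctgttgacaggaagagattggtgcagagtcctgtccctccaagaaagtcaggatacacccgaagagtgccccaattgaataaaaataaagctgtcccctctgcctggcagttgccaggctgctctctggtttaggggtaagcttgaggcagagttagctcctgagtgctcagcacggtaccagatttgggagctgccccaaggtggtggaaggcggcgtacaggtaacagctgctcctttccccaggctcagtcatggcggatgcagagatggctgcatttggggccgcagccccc
Nppa promoter, chr5:163711934-163712233, plus strand: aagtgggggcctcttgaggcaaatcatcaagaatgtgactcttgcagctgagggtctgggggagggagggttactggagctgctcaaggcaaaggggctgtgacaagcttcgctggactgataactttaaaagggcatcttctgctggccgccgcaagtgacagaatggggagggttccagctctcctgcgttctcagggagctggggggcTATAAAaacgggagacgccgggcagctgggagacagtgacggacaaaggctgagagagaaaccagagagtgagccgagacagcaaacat
Nppb promoter, chr5:163699758-163700057, plus strand: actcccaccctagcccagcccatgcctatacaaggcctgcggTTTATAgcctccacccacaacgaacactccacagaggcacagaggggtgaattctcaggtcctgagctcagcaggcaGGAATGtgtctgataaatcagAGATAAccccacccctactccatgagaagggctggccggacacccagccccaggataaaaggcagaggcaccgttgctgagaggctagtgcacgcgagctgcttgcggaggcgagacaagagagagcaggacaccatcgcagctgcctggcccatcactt
Actc1 promoter, chr3:121271778-121272077, minus strand: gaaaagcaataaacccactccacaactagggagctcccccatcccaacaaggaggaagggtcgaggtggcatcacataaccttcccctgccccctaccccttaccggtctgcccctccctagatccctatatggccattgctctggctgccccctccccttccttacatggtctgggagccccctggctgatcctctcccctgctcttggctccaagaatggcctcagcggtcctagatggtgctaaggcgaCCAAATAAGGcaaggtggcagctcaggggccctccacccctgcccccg
Acta1 promoter, chr19:68784145-68784444, minus strand: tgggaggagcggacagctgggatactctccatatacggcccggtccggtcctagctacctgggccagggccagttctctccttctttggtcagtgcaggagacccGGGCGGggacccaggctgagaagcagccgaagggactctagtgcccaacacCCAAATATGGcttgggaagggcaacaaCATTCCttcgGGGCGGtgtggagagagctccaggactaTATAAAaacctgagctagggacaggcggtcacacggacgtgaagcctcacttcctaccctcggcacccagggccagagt
The Nppa promoter holds TATAAA 39 bases before the annotated start, and the Acta1 promoter holds it 29 bases before. A CArG box, the site read by serum response factor, lies 94 bases before the annotated start of Acta1 and just after that of Actc1. As these starts were not checked, the 2 positions do not show that the site lies differently in the 2 genes. Myh6 holds CATTCC 23 bases before its start. The window printed for Myh7 holds none of the 6 motifs. Its annotated start lies directly after the letters ccccag and shortly before an ATG. This window may therefore lie at a coding exon and not at the promoter, and it says nothing about motifs of the Myh7 promoter. Nppb holds AGATAA 110 bases before its start, and TATAAA and CATTCC on the other strand. Of all 33469 RefSeq promoters of this length, 14.2% held TATAAA, 11.6% AGATAA, 14.2% CATTCC, 33.1% GGGCGG, 1.64% a CArG box and 3.29% the MEF2 consensus. Promoters were matched for 70 of the 97 top genes that have a symbol, giving 75 promoters, of which 60.0% held GGGCGG, 17.3% TATAAA, 13.3% AGATAA, 16.0% CATTCC, 6.67% the MEF2 consensus and 4.0% a CArG box. Among 25 promoters of 22 sarcomere genes, 44.0% held GGGCGG, 28.0% CATTCC, 12.0% a CArG box, 12.0% AGATAA, 8.0% TATAAA and 4.0% the MEF2 consensus. These shares are a description of letters and were not tested.

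The myosin heavy chain family was read mainly from the Myh6 and Myh7 rows, with 72.8% ± 2.41 and 23.9% ± 2.56 of the reads of its 10 members in the table. Myh7 was at 3805, 4713 and 3659 CPM, highest in replicate 2. Its share of the reads of both genes was 23.8%, 27.7% and 22.7%, or 3.07 ± 0.410 reads of Myh6 for each read of Myh7. The share was 21.7% to 29.1% in the 9 other libraries. LacZ and the others overlapped (exact two-sided permutation test of 3 against 9 libraries, p = 0.818). Myh7b, a myosin gene of heart and slow muscle, was at 92.8 ± 3.97 CPM. The non-muscle form Myh10 was at 256 ± 8.75 CPM and the smooth muscle form Myh11 at 122 ± 6.46 CPM, while the skeletal forms Myh3 (6.38 CPM), Myh1 (1.16 CPM) and Myh8 (at most 2 counts in a library) were low.

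Each of the 3 myosin genes Myh6, Myh7 and Myh7b contains a microRNA in its span in RefSeq. The mature forms are printed 5′ to 3′ with bases 2 to 8, the seed, in capitals, because 2 of the 3 share it.
rno-miR-208a-3p: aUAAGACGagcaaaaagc
rno-miR-208b-3p: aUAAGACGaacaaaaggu
rno-miR-499-5p: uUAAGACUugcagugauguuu
The microRNAs of Myh6 (miR-208a) and Myh7 (miR-208b) share the seed UAAGACG, and that of Myh7b (miR-499) has UAAGACU. The libraries were made from poly(A) RNA and do not measure mature microRNAs. The table has a row for the Mir208b precursor, with 19 to 33 counts per LacZ library.

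Troponin I was split nearly evenly in reads between the fetal and the adult gene. Tnni1 was at 1290, 1257 and 1182 CPM and Tnni3 at 1412, 1400 and 1278 CPM, which gave Tnni1 47.8%, 47.3% and 48.0% of the reads of both. The 9 other libraries held 45.1% to 47.2%, so the groups did not overlap, although the nearest values lay close together. The difference was 1.65 percentage points, at the smallest p that 3 against 9 libraries can give (exact two-sided permutation p = 0.00909). It did not pass after Benjamini-Hochberg adjustment over 17 shares (adjusted p = 0.0773). With only 2 of the 17 shares at that smallest p, it could not pass. The skeletal form Tnni2 was at 0.430 CPM. The other troponins were read from 1 gene each, with 99.8% ± 0.0165 of troponin T reads from Tnnt2, and Tnnc2 of troponin C at 0.859 CPM beside Tnnc1 at 2290 ± 110 CPM.

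Atrial light chains were low next to their ventricular partners. Myl7, the atrial regulatory light chain, was at 53.3, 49.4 and 45.1 CPM and held 2.66% ± 0.109 of the reads of Myl7 and Myl2. Myl4, the atrial essential light chain that the fetal ventricle also uses, was at 845, 835 and 780 CPM and held 12.8% ± 0.274 of the reads of Myl4 and Myl3. Cardiac actin dominated its skeletal relative, with Acta1 at 699, 870 and 711 CPM and 6.76% ± 0.682 of the reads of both. Nppb held 9.21%, 8.34% and 9.01% of the reads of the 2 natriuretic peptides. The 9 other libraries overlapped with LacZ for each of these 4 shares, and the adjusted exact permutation p was 0.155 for Acta1, 0.34 for Nppb, 0.804 for Myl4 and 1 for Myl7.

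Enzyme isoforms were mixed. The muscle creatine kinase Ckm was at 881 ± 41.3 CPM, and the brain form Ckb held 23.6% ± 0.677 of the reads of both. Lactate dehydrogenase was balanced, with the A form (Ldha) at 46.3%, 49.1% and 47.1%. Glucose transporters were balanced as well, with Slc2a1, the insulin-independent form, at 54.4% ± 1.36 and the insulin-responsive Slc2a4 holding the rest. Hk1 held 56.2%, 49.5% and 54.0% of the reads of Hk1 and the insulin-regulated Hk2, lowest in replicate 2. Enolase and phosphoglycerate mutase were read almost wholly from the widely expressed genes, with 97.1% ± 0.307 for Eno1 over Eno3 and 96.6% ± 0.434 for Pgam1 over the muscle form Pgam2. Cpt1b, the muscle form of the enzyme that admits fatty acids to mitochondria, was at 170 ± 14.3 CPM, and the liver form Cpt1a held 31.1% ± 1.79 of the reads of both. The translation factor Eef1a1, which muscle exchanges for Eef1a2 as it matures, held 73.1% ± 1.41.

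Cytochrome c oxidase showed the same mixture of general and heart-type subunits. Cox6a1, the general form, held 46.2% ± 1.35 of the reads of Cox6a1 and the muscle form Cox6a2. Cox8a, the general form of subunit 8, was at 517, 504 and 459 CPM and held 70.8%, 72.9% and 71.0% of the reads of Cox8a and the heart form Cox8b. The 9 other libraries held 65.3% to 70.4%, and LacZ lay above all of them by 4.12 percentage points in the mean (exact two-sided permutation p = 0.00909, adjusted p = 0.0773). No share of the 17 passed the adjusted threshold of 0.05, 3 had an unadjusted p under 0.05, and 2, those of Tnni1 and Cox8a, did not overlap. Both of these stood at the smallest p of the exact permutation test, where 2 shares among 17 reach only 0.0773 after adjustment. They could not pass, so the missing calls do not decide whether these shares differ. For reference, 5.76% of all 14063 tested genes did not overlap between LacZ and the other libraries in CPM. Cox7a1, the muscle form of subunit 7a, is listed at 0 in all 3 LacZ libraries, and its partner Cox7a2 was not analysed here.

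**Figure D2:**
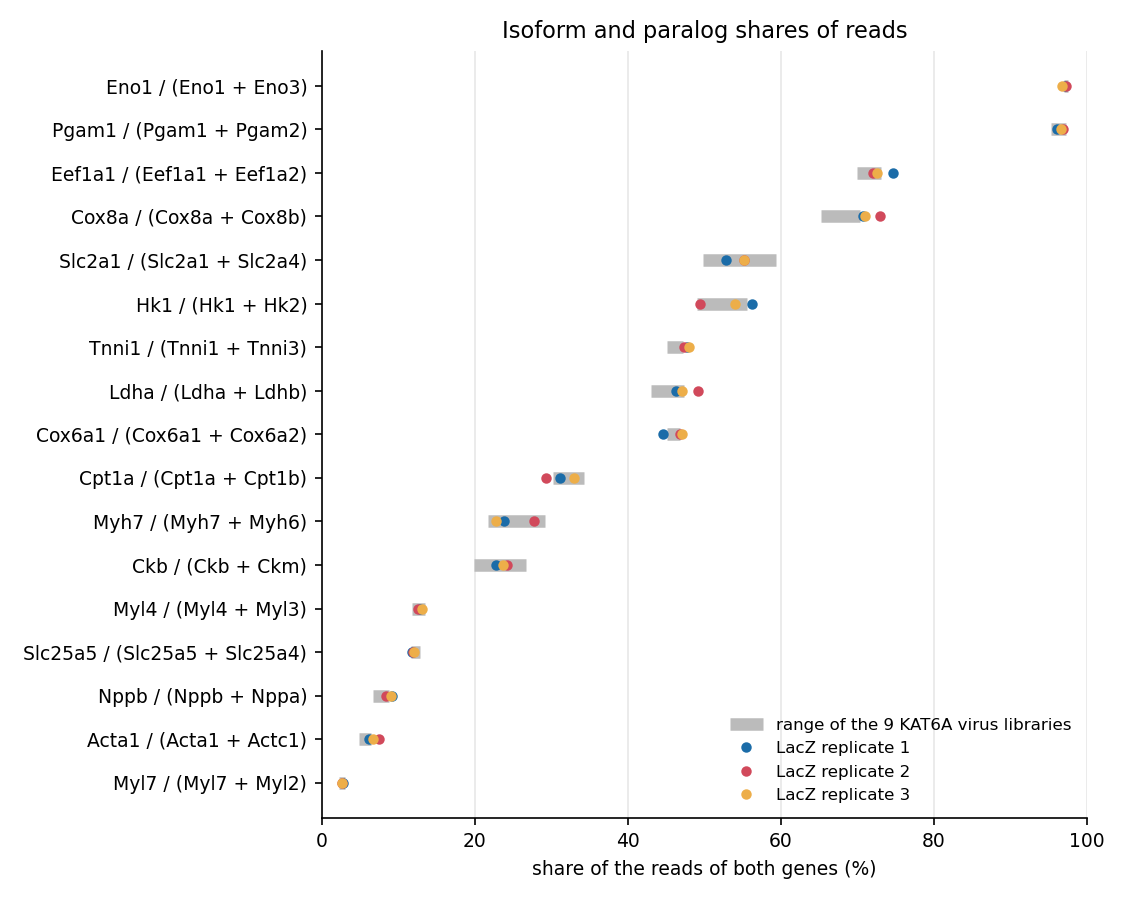
Share of the reads of 2 related genes that fell in the first of them, in percent, with 1 point per LacZ library and a grey bar for the range of the 9 KAT6A virus libraries. The points of Cox8a (70.8% to 72.9%) and Tnni1 (47.3% to 48.0%) lie above their bars, and the points of the other 15 pairs overlap with theirs.

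Paralog use was summarised for 54 families of heart and metabolic genes, of which 53 had reads. One member held over 90% of the reads in 17 families, 50% to 90% in 30 and 50% or less in 6. These shares are over the members in the table. Among the calcium and coupling genes, Atp2a2 stood beside Atp2a3 at 0.479 CPM, and the skeletal pump Atp2a1 was not analysed here. Pln was at 2110, 1941 and 2049 CPM while the atrial SERCA inhibitor sarcolipin (Sln) was at 0.528 CPM. Ryr2, the cardiac calcium release channel, held 98.8% ± 0.0567 of ryanodine receptor reads, at 623, 625 and 791 CPM, highest in replicate 3. The skeletal calsequestrin Casq1 was present beside the cardiac Casq2, at 239, 276 and 237 CPM against 1163, 1155 and 1166 CPM. It held 17.8% ± 1.33 of the reads of both.

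Several ion channels were read from more than 1 paralog. The T-type calcium channels Cacna1g (163, 161 and 175 CPM) and Cacna1h (122 ± 4.91 CPM), which the adult ventricle lowers, held 39.2% ± 0.814 and 28.8% ± 1.22 of the reads of 5 calcium channel genes. The L-type channel Cacna1c, the main calcium entry path of the adult ventricle, held 27.7% ± 1.24. Among the pacemaker channels, Hcn2 held 83.8% ± 2.74 and the sinus node form Hcn4 15.8% ± 2.63. Gja1 held 92.1% ± 0.554 of connexin reads.

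Receptors for the agents used to provoke hypertrophy in such cultures were read at unequal levels. Adrb1 was at 54.3, 56.4 and 55.8 CPM, with little spread between libraries. The alpha-1 receptors were read from Adra1d (67.6 ± 2.27 CPM) and Adra1b (52.3 ± 1.57 CPM) more than from Adra1a (8.73 ± 0.671 CPM). The endothelin receptor Ednra was at 119 ± 4.36 CPM and the angiotensin receptor Agtr1a at 12.1 ± 0.885 CPM, while Agtr1b had no read in LacZ. Of the natriuretic peptide receptors, Npr2, which answers to C-type peptide, held 64.4% ± 1.82, and Npr1, which answers to the peptides of Nppa and Nppb, was at 10.3 ± 1.13 CPM.

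Metabolic regulators were read at lower levels. The PPAR family, which switches fatty acid genes, was read from Ppard at 99.1, 107 and 99.3 CPM, or 91.7% ± 0.311, and Ppara was at 7.84 ± 0.945 CPM. The estrogen-related receptor Esrra held 65.8% ± 3.16 and Esrrg 31.8% ± 3.15, and the coactivator PGC-1alpha (Ppargc1a) was at 26.1 ± 2.50 CPM. Pdk4, a fasting-induced kinase that blocks glucose oxidation, was at 7.35 ± 0.512 CPM beside Pdk1 at 94.8 ± 11.5 CPM. For AMPK, the energy sensor named in the title of the study, the catalytic subunits Prkaa2 and Prkaa1 were at 60.9 ± 10.1 and 46.1 ± 2.59 CPM. Prkab1 held 85.6% ± 0.765 of the beta and Prkag1 86.1% ± 0.147 of the gamma reads. Prkaa2 was at 55.4, 54.7 and 72.6 CPM in LacZ and at means of 518, 87.2 and 1167 CPM in WT, K815R and the libraries labelled K815Q. Of KAT6 reads, 73.5% ± 0.678 belonged to Kat6a and the rest to its paralog Kat6b.

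All 16 cardiac transcription factors of a list drawn up after the table was seen were above 1 CPM. Nkx2-5 was at 245, 244 and 229 CPM and Gata4, a zinc finger activator of Nppa and Nppb, at 206, 205 and 204 CPM. Gata4 held 69.3% ± 0.349 of GATA factor reads. Mef2a (40.7% ± 2.34), Mef2c (34.4% ± 0.657) and Mef2d (24.8% ± 1.64) shared the MEF2 reads, and Hand2 was at 26.1 ± 1.22 CPM beside Hand1 at 4.21 ± 0.566 CPM.

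The labelled cell type was checked against its markers. Of 14 cardiomyocyte markers, 13 are in the table and all 13 exceeded 100 CPM, with a sum of 62147 ± 2449 CPM. Titin (Ttn) was not analysed here. Of 6 ventricular markers, 5 exceeded 1 CPM and 4 exceeded 10 CPM. They included Myl2 at 1864, 1858 and 1687 CPM and the ventricular repressor of atrial genes Irx4 at 94.5, 97.8 and 95.8 CPM. The potassium channel subunit Kcne1 was low at 3.28 CPM, and Lrrc10 had only 2 to 9 counts per LacZ library (0.197 CPM). The atrial gene Bmp10 (at most 1 count) and the node gene Isl1 (3 to 5 counts, 0.155 CPM) were near the level of 3 counts. The atrial gene Sln (0.528 CPM) and the node gene Shox2 (0.265 CPM) were under 1 CPM as well. Other atrial and conduction markers were higher, with Nr2f2 at 22.9 CPM, Hcn4 at 18.2 CPM and Gja5, a connexin of conduction and arterial cells, at 31.5 CPM. Fewer cells of a type and less RNA per cell cannot be told apart in these bulk libraries.

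Stromal cell genes were plentiful. All 10 fibroblast markers exceeded 10 CPM, with a sum of 12220 ± 464 CPM that came mainly from Col1a1 and Col3a1. Pdgfra, the receptor that marks cardiac fibroblasts, was at 61.4, 62.5 and 59.6 CPM, decorin (Dcn) at 236, 281 and 229 CPM and the fibroblast factor Tcf21 at 18.6, 13.8 and 16.5 CPM. Col1a2, whose protein pairs with that of Col1a1 in collagen I, was read at only 9.71, 15.7 and 10.4 CPM, and at 9.14 to 126 CPM in the other libraries. All 8 myofibroblast markers were above 10 CPM, among them smooth muscle actin (Acta2) at 2860, 2515 and 2582 CPM and periostin (Postn) at 328, 286 and 325 CPM. All 7 smooth muscle and all 7 pericyte markers were above 10 CPM as well. The defining smooth muscle gene Myh11 was at 125, 115 and 126 CPM and the pericyte receptor Pdgfrb at 404, 340 and 394 CPM. Several of these genes are shared between lists or read in other cells, Acta2 and Tagln in 2 lists each.

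Vessel and lining cells left weaker traces. Of 9 endothelial markers in the table, 8 exceeded 1 CPM, with a sum of 206 ± 12.2 CPM. Cdh5, the endothelial cadherin, was at 54.0, 51.2 and 49.6 CPM and the VEGF receptor Kdr at 51.8, 59.1 and 49.3 CPM, while Cldn5 is listed at 0 in all 12 libraries, and the cause of that was not tested. The 8 epicardial and mesothelial markers summed to 75.1 CPM, with Wt1 at 5.78, 6.41 and 5.08 CPM. In the lymphatic list Flt4 (64.2 CPM), Pdpn (59.7 CPM) and Prox1 (34.4 CPM) stood above Lyve1 (4.39 CPM) and Ccl21 (at most 3 counts in a library).

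Blood cells were scarce apart from macrophages. All 11 macrophage markers exceeded 1 CPM, with a sum of 86.3 ± 11.2 CPM, and the highest were Lyz2 (22.6, 17.4 and 19.3 CPM), Mrc1 (17.6, 12.1 and 17.7 CPM) and Cd68 (17.2, 12.3 and 15.9 CPM), each lowest in replicate 2. Genes of the T cell receptor complex were at most 2 counts in a library (Cd3d and Cd3g) or had no read (Cd3e). Not 1 of the 4 B cell or 5 neutrophil markers reached 1 CPM. Kit was at 47.2 CPM, yet the mast cell proteases Cpa3, Cma1 and Tpsb2 were at most 1 count. Hemoglobin was faint, with the higher of 2 Hba-a2 rows at 12.4, 11.5 and 7.90 CPM and Hbb at 9.00, 7.84 and 5.45 CPM. The other Hba-a2 row was at 8.84, 7.30 and 5.53 CPM.

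Nerve, fat, skeletal muscle, liver and lung genes were mostly under 1 CPM. Dbh, the last enzyme of noradrenaline synthesis, was at 17.8, 17.0 and 16.7 CPM, while Th, the first enzyme, had at most 1 count. Tubb3, a tubulin of neurons, was at 23.6, 21.9 and 23.0 CPM. Fabp4, of fat and endothelial cells, was at 16.1 ± 0.878 CPM while the fat hormone gene Adipoq had no read. The myogenic factors Myod1 (0.112 CPM) and Myog (0.297 CPM) were under 1 CPM, and albumin (Alb) had no read. Over the 20 lists other than those of heart muscle cells, with the proliferation list among them, 138 markers are in the table. Of these, 91 exceeded 1 CPM, 61 exceeded 10 CPM and 10 had no read.

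**Figure D3:**
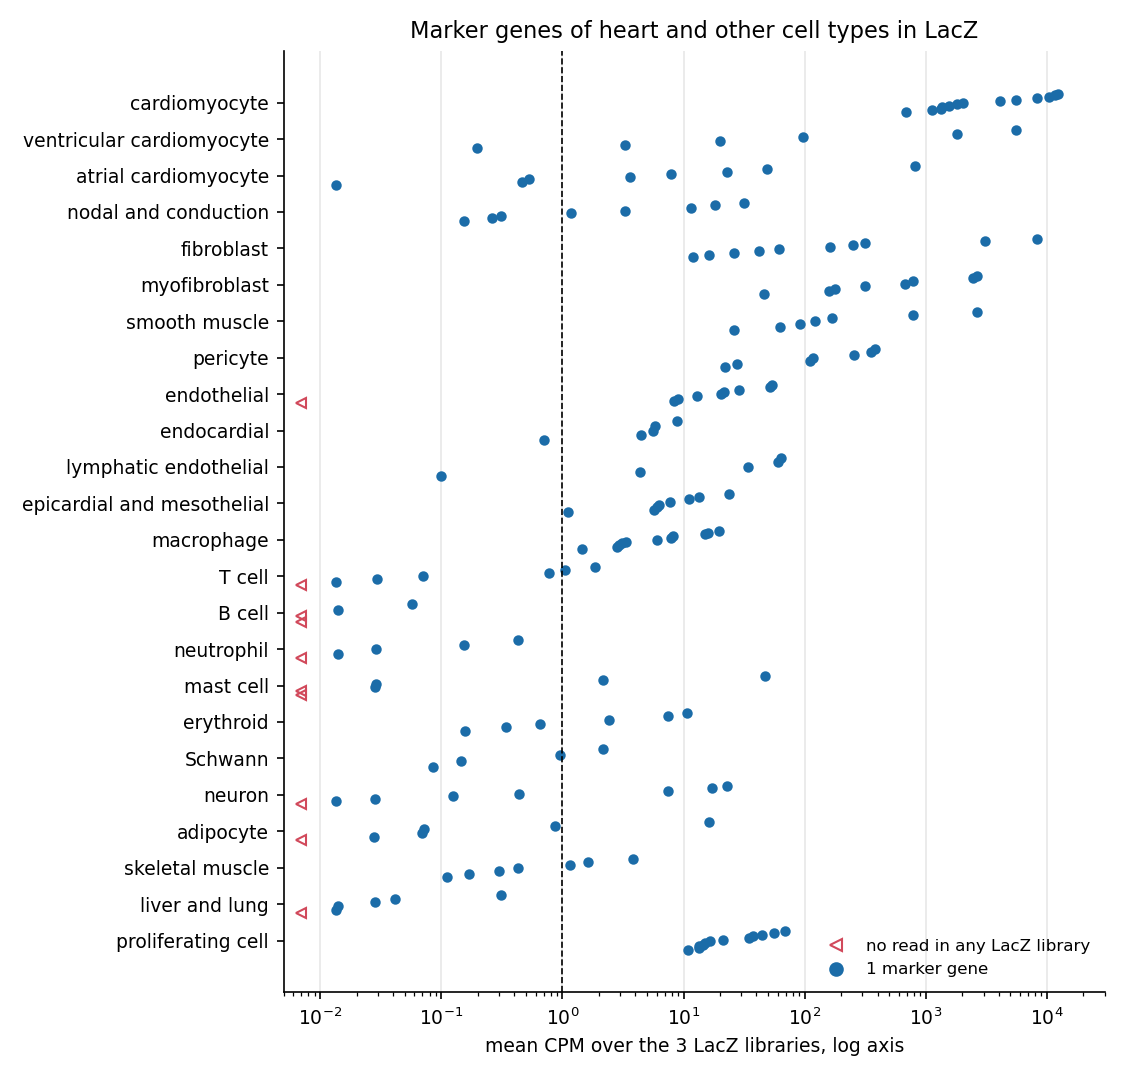
Mean CPM of each marker gene over the 3 LacZ libraries on a log axis, 1 row per cell type list, with a dashed line at 1 CPM and open triangles for genes without a read in LacZ. All cardiomyocyte markers lie above 100 CPM and all fibroblast, myofibroblast, smooth muscle, pericyte and proliferating cell markers above 10 CPM, while B cell, neutrophil, liver and lung markers lie under 1 CPM.

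Genes of the cell cycle were read in every LacZ library. All 12 proliferation markers exceeded 10 CPM, with sums of 328, 370 and 340 CPM in LacZ and 263 to 311 CPM in the other libraries. Mki67, a nuclear protein of all cycling cells, was at 41.0, 46.6 and 45.2 CPM, and Top2a, the topoisomerase that untangles chromosomes, at 63.4, 74.0 and 69.1 CPM. Which cell type carried these messages was not tested.

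The LacZ libraries were alike in most genes. Over 10272 genes of at least 5 CPM, the SD of log2 CPM over the 3 libraries had a median of 0.0734, and its 95th percentile was 0.198. It exceeded 0.5 for 18 genes. The 10 most variable genes were 4 rows with clone or LOC names, 2 interferon response genes, and Angptl4, Mien1, Hnrnpc and Pla2g2a. LOC100912380 led with 0.293, 0.0891 and 18.3 CPM, a signal in replicate 3 alone. Angptl4, a secreted inhibitor of lipoprotein lipase, was at 4.90, 9.44 and 3.97 CPM.

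Replicate 2 stood apart in the type I interferon response, the set of antiviral genes that infected cells and their neighbours switch on. The list was added after the table was seen. Isg15, a ubiquitin-like antiviral protein, was at 40.4, 80.2 and 37.3 CPM. Ifit3, which binds viral RNA complexes, was at 13.8, 30.3 and 13.0 CPM. All 25 genes of the list at 5 CPM or more were highest in replicate 2, with a median SD of 0.42 on the log2 scale, and 16 of the 100 most variable genes belonged to the list. The list held 0.109%, 0.167% and 0.111% of gene counts in LacZ, and 0.0313% to 0.0544% in the 9 other libraries. Replicates 1 and 3 thus lay above all other libraries too.

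**Figure D4:**
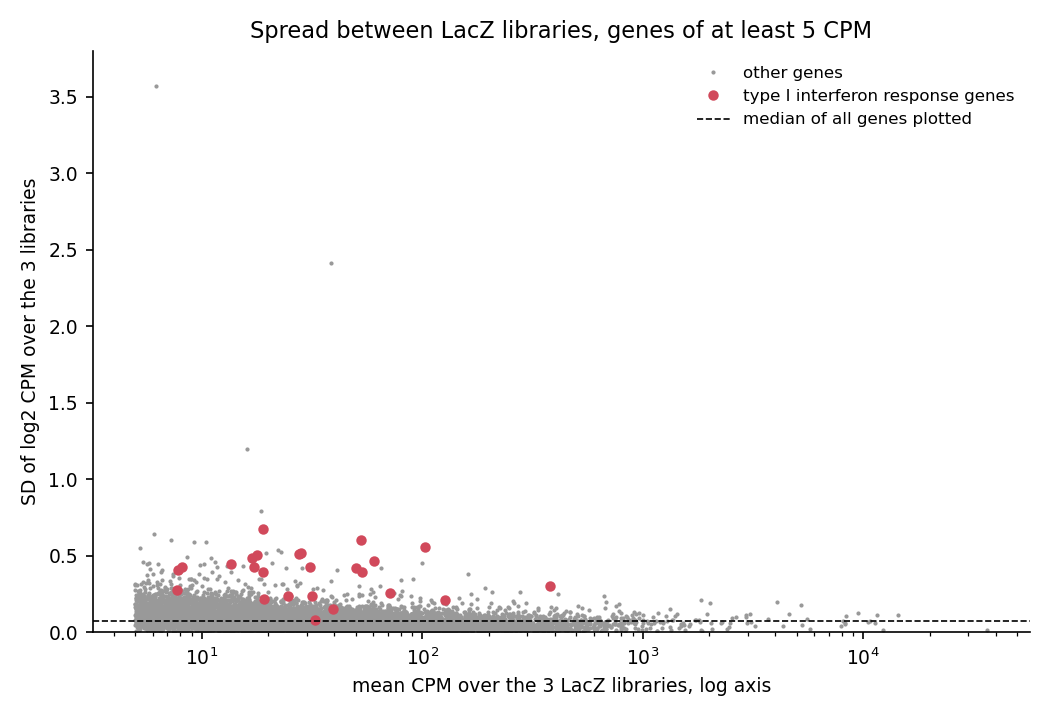
SD of log2 CPM over the 3 LacZ libraries against the mean CPM on a log axis, 1 point per gene of at least 5 CPM, with the 25 interferon response genes in red and the median of 0.0734 as a dashed line. Most red points lie well above the median, with a median SD of 0.42.

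LacZ was then compared with the mean of the 3 KAT6A virus groups in 1 model of all 12 libraries, to see which of the genes described here differ in the rest of the series. Of all 14063 genes tested, 6.66% were called under 0.05 (edgeR's quasi-likelihood test, Benjamini-Hochberg adjusted), 4.31% as higher and 2.35% as lower in LacZ. Of the 100 top genes 7 were called, all lower in LacZ, against 2.35% of all genes called as lower. None of the 100 was called as higher, against 4.31% of all genes. The median log2 difference of the 100 was -0.04, against -0.01 over all tested genes. Of the 100, 4 did not overlap with the other libraries, all lower. Among all genes 5.76% did not overlap, with 3.53% higher and 2.23% lower in LacZ.

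The clearest of the 7 was Pln, at 2110, 1941 and 2049 CPM against 2208 to 2469 CPM, lower in all 3 LacZ libraries than in any of the others. Its log2 difference was -0.21 with SE 0.04 (edgeR's quasi-likelihood test, Benjamini-Hochberg adjusted p = 0.00307). Mt-co2 was lower by the same test at -0.28 with SE 0.06 (8820, 7681 and 8534 CPM against 8843 to 11467 CPM). The other 5 were Mt-atp6, Mb, Mybpc3, Myl6 and Ckm, with differences of -0.26 to -0.15, and of these Mybpc3 alone did not overlap. None of the 7 passed edgeR's test without LacZ replicate 2 (Pln adjusted p = 0.0633), where 17 of the 100 genes had an unadjusted p under 0.05, and the calls among all genes were then 336. Marker genes of the sarcomere at the top of the list, such as Myh6 (12202 to 12434 CPM against 11546 to 13282 CPM) and Actc1 (9898 to 10787 CPM against 9702 to 12692 CPM), overlapped and were not called.

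**Figure D5:**
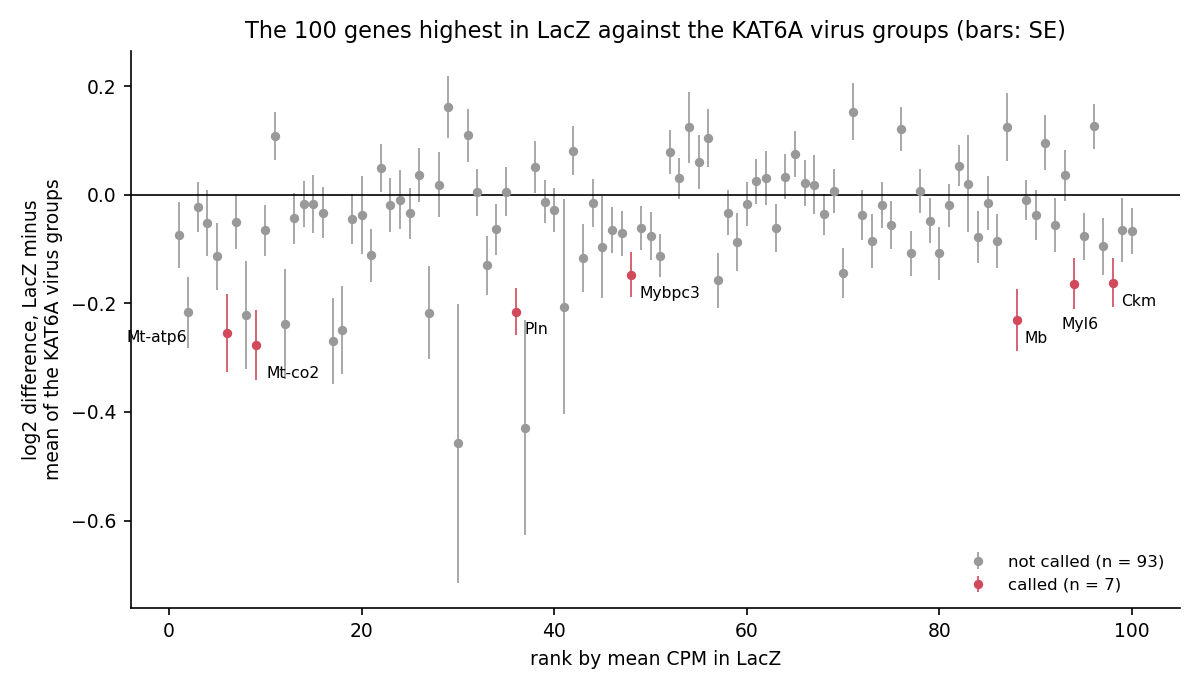
Difference on the log2 scale between LacZ and the mean of the 3 KAT6A virus groups for the 100 genes with the highest mean CPM in LacZ, by rank, with bars for the SE. The 7 called genes in red lie between -0.28 and -0.15, and most of the 100 genes lie near 0.

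Among the paralog families 155 genes were tested and 16 were called, 10.3% against 6.66% of all genes, with 3 higher and 13 lower in LacZ and a median log2 difference of -0.03. Among the 3 that were higher are muscle genes of low level. Myl1, the essential light chain of fast skeletal and embryonic heart muscle, was at 14.6, 18.7 and 14.7 CPM against 8.16 to 10.6 CPM, a log2 difference of 0.80 with SE 0.09 (edgeR's quasi-likelihood test, adjusted p = 4.81e-06). Mybpc2, the fast skeletal myosin-binding protein C, was higher by 0.41. LacZ and the other libraries did not overlap for either gene.

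Of the 13 lower genes, Kat6a, the rat row of the gene that the virus delivers, and the AMPK subunit Prkaa2 have their values given above. Myh7b was at 94.1, 95.9 and 88.3 CPM against 104 to 142 CPM (log2 difference -0.37, SE 0.04). Cox8b was at 214, 187 and 188 CPM against 211 to 283 CPM (-0.39, SE 0.06), and Cacna1g at 163, 161 and 175 CPM against 181 to 240 CPM (-0.29, SE 0.05). Without LacZ replicate 2, 8 of the 16 calls remained, among them Myl1, Mybpc2, Myh7b, Cox8b, Cacna1g, Prkaa2 and Kat6a, and without LacZ replicate 3 there were 9. The calls for Pln, Mybpc3, Ckm, Myl6, Hk3, Adra1b, Npr1 and Gata6 were lost without replicate 2. The differences then were as large or larger for Mybpc3 (-0.15), Ckm (-0.18), Myl6 (-0.17) and Npr1 (-0.27), and smaller for Pln (-0.18), Hk3 (-0.30), Adra1b (-0.13) and Gata6 (-0.15).

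The 20 lists other than those of heart muscle cells include the proliferation list, whose 12 genes mark no single cell type. In these 20 lists 100 genes were tested and 16 were called, against 6.66% of all genes, with 10 higher and 6 lower in LacZ. Of these 10, 6 are proliferation markers, namely Mki67, Top2a, Ccnb1, Ccna2, Cdk1 and Rrm2. Mki67 was higher by 0.40 on the log2 scale with SE 0.05 (30.4 to 37.4 CPM in the other libraries) and Top2a by 0.39 with SE 0.07 (48.5 to 59.4 CPM). The matrix protein tenascin C (Tnc), at 178, 177 and 183 CPM against 126 to 151 CPM, was higher by 0.36 with SE 0.05. Lyz2 and Mrc1 of macrophages, Tcf21 and Postn of fibroblasts, and Tubb3 were lower, with differences of -0.41 to -0.18. Adgre1, another macrophage gene, was higher by 0.40 (3.27, 2.94 and 3.19 CPM against 1.93 to 2.83 CPM), but that call held in only 2 of the 12 fits that leave out 1 library. Hba-a2, in the higher of its 2 rows, and Hbb were higher by 0.65 and 0.84. The other Hba-a2 row, which is not in these counts, was higher by 0.78 (edgeR's quasi-likelihood test, adjusted p = 0.0238). Without LacZ replicate 2, 6 of the 16 calls remained, namely Mki67, Top2a, Ccnb1, Tnc, Lyz2 and Tubb3. All 28 genes of the interferon list were called as higher in LacZ, and in all 28 without replicate 2 as well. The part of the interferon level in any of these differences was not tested.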

How the data were processed

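The authors deposited 1 table of raw read counts per Ensembl rat gene for 12 libraries. Per the labels' protocols these were poly(A)-selected, strand-specific libraries read as single reads. The submitters' processing notes name Trimmomatic 0.39, HISAT2 2.2.1, HTSeq 0.6.1, edgeR and the build Rnor_6.0. Groups and replicate numbers came from the titles. The last lines of the table name no gene and stayed out of library sizes. In LacZ they held 11.7% to 12.2% of all entries in no feature and 25.8% to 26.1% at several places. These are shares of entries, which need not equal shares of reads. Entries at several places count for no gene, so a gene with near-identical copies is undercounted.

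CPM was computed with edgeR 4.0.16 (R 4.3.3, TMM). Genes were tested with edgeR's quasi-likelihood test on the deposited counts, with a robust fit of group means over all 12 libraries, after filterByExpr (minimum count 10, minimum total 15). Calls used a Benjamini-Hochberg adjusted p under 0.05 over 14063 genes. Log2 CPM used a prior count of 2. Shares were tested by exact permutation of 3 against 9 libraries (scipy 1.17.1). Transcript lengths were not used here, so shares compare reads. On simulated counts for this comparison with 13955 genes, 100 of 100 genes changed 2-fold and 98 of 100 changed by 0.5 on the log2 scale were called, with 17 of 13755 unchanged genes. The changed genes were drawn from those above a minimum mean level. Smaller changes, such as those of the called top genes, were not simulated, nor was a library that stands apart.

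Named genes were the 30 highest in LacZ with a symbol, members of the family and marker lists, the 10 most variable at 5 CPM or more, and up to 10 of the top 100 with the smallest p. The members and lists were chosen with earlier results of these data known. The interferon, imprinted, sex-linked, transcription factor, collagen, acute phase and every-cell lists and the classes of top genes were added after the table was seen. Intervals and floors cover counting error only. Alternatives were RLE scaling, no filter, DESeq2 1.42.0, a replicate block and leaving out libraries. Some genes of the lists are not reported here.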

Additional observations from a re-analysis of the deposited data

How the results depend on the processing

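The share of gene counts in the 100 top genes was 24.3% when messages of mitochondrial DNA were left out of ranking and total, and it moved by less than the spread under the other settings run. Counts of genes and markers at 1 CPM stayed within 1.5 times of the reported ones. Against all other groups 936 genes were called, 931 with RLE size factors, 1260 without a filter and 791 with DESeq2, and 574 against WT and K815R alone, a setting chosen after seeing the data. Leaving out 1 library gave 336 (without LacZ replicate 2) to 1226 genes (without K815R replicate 2), with 448 without LacZ replicate 3. Among the 100 top genes the 7 calls became 13 without a filter, 13 with DESeq2, 3 against WT and K815R alone, and 0 (without LacZ replicate 2) to 11 (without K815R replicate 2) when 1 library was left out, with 2 without LacZ replicate 3 and 4 without WT replicate 3 or K815Q replicate 1. The cause was not tested. Replicate numbers did not pair the samples: deviations of same-numbered libraries correlated at -0.127 to 0.122. With the replicate number as a block, 1026 genes and 14 of the top 100 were called. The 17 shares gave 0 calls in each setting that leaves out a library, where the smallest p the exact test allows is 0.0364 (a LacZ library left out) or 0.0121 (another), so that 1 share alone could not pass the adjustment and this says nothing about stability. No gene whose call is named in the comparison of LacZ with the other groups reversed its direction in these settings. Ranking by CPM per coding length, and shares with counts divided by length, were not run, because no lengths were used here. Genes with close copies are limited by uniquely placed reads, and levels under 0.126 to 0.136 CPM by depth.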

Other observations

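Members of the interleukin 6 family pathway that are known to act upstream of Reg genes were read beside the high Reg3b. The receptor Osmr was at 55.5, 52.6 and 57.3 CPM in LacZ, the shared receptor Il6st at 134, 142 and 156 CPM and the transcription factor Stat3 at 464, 474 and 463 CPM. The ligands were low, with Il6 at 1.53 CPM, Lif at 2.94 CPM and Osm at 0.335 CPM. Of 12 genes tested in this list, drawn up after the table was seen, 1 was called, a share near the 6.66% of all genes. That gene, Osmr, was higher in LacZ than in the mean of the KAT6A virus groups by 0.30 on the log2 scale with SE 0.05 (adjusted p = 0.000907, edgeR's quasi-likelihood test). It was called in all 12 fits that leave out 1 library. Reg3b itself was not called, and a link between these genes and its level was not tested.

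Imprinted genes, which are active from 1 parental copy, ranged widely. Igf2r, the receptor that clears insulin-like growth factor 2, was at 1278, 1412 and 1409 CPM, while its ligand Igf2 was at 41.8, 34.3 and 36.0 CPM. Grb10, an inhibitor of insulin signalling, was at 322, 305 and 354 CPM and Mest at 57.8, 49.0 and 53.9 CPM. Of 10 imprinted genes tested, in a list drawn up after the table was seen, 2 were called, namely Peg3 and Grb10. Both were lower in LacZ, against 6.66% of all genes called and 2.35% called as lower. No result about imprinted genes as a set is drawn from 2 calls. Grb10 differed by -0.18 with SE 0.04 (edgeR's quasi-likelihood test, adjusted p = 0.012), and its call was lost without LacZ replicate 1 or without LacZ replicate 2. Peg3, a zinc finger protein, was at 44.1, 46.9 and 49.7 CPM against 53.1 to 69.6 CPM in the other libraries, a log2 difference of -0.32 with SE 0.05 (adjusted p = 0.000307, edgeR's quasi-likelihood test).

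Y-linked genes were read in every LacZ library, with Eif2s3y at 35.8, 36.3 and 36.4 CPM and Kdm5d at 11.5, 11.4 and 12.1 CPM, and the other libraries had 34.8 to 39.0 and 11.3 to 14.8 CPM.

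Collagen chains that pair in 1 protein took like shares of reads for collagen IV (Col4a1 at 2981 and Col4a2 at 2068 CPM) and collagen VI (Col6a1 at 426 and Col6a2 at 505 CPM), in contrast to Col1a1 at 8252 and Col1a2 at 11.9 CPM. Some genes that most cells use were also low. The actin Actg1 was at 14.9, 11.7 and 12.1 CPM, Hmgb1 at 0.406 CPM and the non-muscle myosin Myh9 at no more than 2 counts in a LacZ library. A separate row with a like name, Myh9l1, was at 28.2, 18.3 and 23.3 CPM in LacZ. The other actin of all cells, Actb, was at 1199, 1042 and 1101 CPM. Other rows at or near 0 beside higher partners or list members are Cldn5, Cox7a1 and Mt-nd4. Why these rows are low was not tested.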
